A study of Mus musculus with 12 samples.

Results

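Expression of 10 genes of the circadian clock was compared: the activator Clock, the repressors Per2, Per3, Cry1 and Cry2, the nuclear receptors Nr1d1 and Nr1d2, and the output factors Dbp, Tef and Hlf. They were chosen by name as clock output and repressor genes; the rule uses no measured value, but the choice was made with earlier results of these data known. All 10 were among the 56791 gene names of the deposited table, and all 10 were among the 17540 genes that had a mean of at least 1 FPKM (assigned fragments relative to gene length in kilobases and to the library's total) and were tested. Each of the 10 was above that level in every unit of both groups.

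The cells came from the hippocampi of male mice, adult and naive, and were sorted by ACSA-2, an astrocyte surface antigen; their RNA was sequenced with an ultra-low-input kit. The mice labelled Ctrl carried Tnfrsf1b fl/fl, a floxed gene for the TNF receptor TNFR2, without Cre. The mice labelled cKO carried GfapcreERT2:Tnfrsf1b fl/fl, in which the Gfap promoter, an astrocyte promoter that other glial and progenitor cells can also use, drives a tamoxifen-inducible Cre recombinase. The floxed allele is thus shared, and the presence of Cre cannot be told apart from the loss of the receptor. The labels name 3 A numbers of each genotype (A1, A2 and A8 for Ctrl, A4, A9 and A10 for cKO), each with an S1 and an S2 library. They do not say what A and S stand for, nor at which hour the tissue was taken, how old the mice were or how tamoxifen was given. S1 and S2 of an A number had correlations over all genes of 0.980 to 0.984, and libraries of different A numbers 0.788 to 0.896, so they were averaged and each A number was counted as 1 unit. Nothing in the labels says that an A number is 1 animal, so p-values measure the spread between these 6 units.

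Recovered depth was 17311881 to 35323334 reads per library. Tnfrsf1b had 4 reads in A1 S1 of Ctrl, 10 and 22 reads in the A4 libraries labelled cKO, and 0 in the other 9 libraries. The most reads were thus in a unit labelled cKO, and so few reads cannot check the labels either way. Astrocyte markers (12 of 12 tested) averaged 7.74 to 8.05 in the Ctrl units and 8.02 to 8.17 in the cKO units as log2(FPKM + 1). The 12 oligodendrocyte markers averaged 5.57 to 6.63 in Ctrl and 3.90 to 5.20 in cKO, including Mbp and Mog, which code for myelin proteins. All 12 were lower at an unadjusted limma p under 0.05, as 4.71% of all genes were, and 0 at an adjusted one. With their level as a covariate, 0 of the 10 clock genes passed the genotype test. That level did not overlap between genotypes, so a fit on 6 units can hardly tell it apart from genotype. Fold changes given below with this covariate are extrapolated and cannot be read as corrected for cell content. Of 8 neuronal and 8 microglial markers, 3 each reached the 1 FPKM mean. The 3 microglial ones had fold changes above 0, 1 of them at an unadjusted p under 0.05 (2.98% of all genes were higher at that p), and the list averaged 2.11 to 2.16 in the Ctrl units and 3.27, 2.68 and 2.40 in A4, A9 and A10. Fold changes were below 0 for the 3 neuronal markers, 4 of 4 tested oligodendrocyte precursor markers, 5 of 5 endothelial and 5 of 5 ependymal ones, and above 0 for 5 of 5 mural ones, with 0 adjusted p under 0.05 by limma; the part of these lists in the clock gene values was not tested. A transcript of a bulk sort can be lower because fewer cells carry it or because each cell holds less of it, and these cannot be told apart.

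The mammalian clock is a loop of transcription. The proteins CLOCK and BMAL1 (the product of Arntl) bind E-box sequences and switch on the Per, Cry and Nr1d genes and Dbp. PER and CRY proteins then repress CLOCK and BMAL1, while NR1D1 and NR1D2 (REV-ERB alpha and beta) repress Arntl through ROR elements. DBP, TEF and HLF are PAR bZIP factors that bind D-box sequences and pass the rhythm on to other genes. In most rhythmic mouse tissues Nr1d1 and Dbp RNA peaks at about the time when Arntl RNA is lowest, Per RNA follows, and Cry1 RNA peaks later, so a shift in phase moves these genes apart. Astrocytes carry such a clock, which bears on rhythmic behaviour and on the handling of neurotransmitters.

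The deposited table lists these genes, with Ensembl identifiers, as Clock (ENSMUSG00000029238, chr5:76357715-76452639), Per2 (ENSMUSG00000055866, chr1:91343704-91387046), Per3 (ENSMUSG00000028957, chr4:151088109-151129122), Cry1 (ENSMUSG00000020038, chr10:84967564-85020928) and Cry2 (ENSMUSG00000068742, chr2:92233991-92264388). Nr1d1 (ENSMUSG00000020889) is listed at chr11:98658758-98666159, Nr1d2 (ENSMUSG00000021775) at chr14:4230569-4265642, Dbp (ENSMUSG00000059824) at chr7:45354512-45359627, Tef (ENSMUSG00000022389) at chr15:81686622-81711064 and Hlf (ENSMUSG00000003949) at chr11:90227362-90281721. These spans have the lengths of the GRCm38 genes but other positions. Nr1d2 is on the plus strand here, while its GRCm38.p6 promoter window is on the minus strand. These coordinates are thus not those of GRCm38 or of the promoter windows that follow. No other build was compared, so which build the table uses is not settled.

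Start sites can hold the short elements named above. Of the 10 genes, 9 had promoter windows in the RefSeq table (250 bases before to 50 after an annotated start, build GRCm38.p6); Per2 had no entry. Both strands were searched; the E-box and its variant differ in the last base, so a position cannot match both on the same strand. The E-box CACGTG was in the windows of Cry1 and Tef and in 7.15% of all 32851 windows. Its variant CACGTT was in those of Cry1, Cry2 and Nr1d1, and in 4.68% of all. The D-box TTATGTAA occurred in the Per3 window and in 0.938% of all windows, the form TTACGTAA in none of the 9 genes with a window and 0.119% of all. The ROR element was in the windows of none of these 9 genes and in 0.219% of all windows. The cAMP response element TGACGTCA was in that of Hlf and in 1.79% of all. A match describes these letters and does not show binding.

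Windows of 3 genes are shown because each holds a different element of the loop, and because the values below set Per3 against Cry1 and Dbp against Arntl. Capitals mark the motifs, and positions count from 1 at the 5′ end of a window. The Per3 window (chr4:151044616-151044915, minus strand) has D-boxes at positions 46 and 93. The Cry1 window (chr10:85185005-85185304, minus strand) has CACGTT on the opposite strand at 172 and an E-box at 191. The further downstream of the Arntl windows (chr7:113207261-113207560, plus strand) has a ROR element at 278, past the start site.
Per3: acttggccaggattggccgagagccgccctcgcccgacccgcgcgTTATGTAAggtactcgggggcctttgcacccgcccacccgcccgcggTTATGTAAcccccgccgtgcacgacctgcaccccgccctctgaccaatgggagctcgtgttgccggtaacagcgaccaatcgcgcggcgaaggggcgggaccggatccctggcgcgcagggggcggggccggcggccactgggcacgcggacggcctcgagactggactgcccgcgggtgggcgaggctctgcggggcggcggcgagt
Cry1: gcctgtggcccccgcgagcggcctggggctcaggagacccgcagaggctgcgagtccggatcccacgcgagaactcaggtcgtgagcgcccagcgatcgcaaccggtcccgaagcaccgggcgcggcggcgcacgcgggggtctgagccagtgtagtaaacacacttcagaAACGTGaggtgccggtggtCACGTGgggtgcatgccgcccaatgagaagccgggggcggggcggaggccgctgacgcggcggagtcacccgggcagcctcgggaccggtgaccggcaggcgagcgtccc
Arntl: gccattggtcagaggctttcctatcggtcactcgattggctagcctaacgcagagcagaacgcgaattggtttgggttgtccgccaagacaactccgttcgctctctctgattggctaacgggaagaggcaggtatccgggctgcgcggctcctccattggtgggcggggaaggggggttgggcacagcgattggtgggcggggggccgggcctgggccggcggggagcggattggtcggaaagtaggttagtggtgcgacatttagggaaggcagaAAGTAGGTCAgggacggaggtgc

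All 10 genes were expressed in every library. The fewest recovered reads behind a value were 232 (Cry1) and the most 9755 (Nr1d1). Per gene length, Nr1d1 stood highest, with a Ctrl mean of 86.7 ± 16.1 FPKM and a cKO mean of 88.0 ± 0.440 FPKM (SD, n = 3 units each). Its units did not overlap those of Hlf, next in order with 31.3 ± 3.62 FPKM for Ctrl and 32.2 ± 3.09 FPKM for cKO (SD, n = 3). Hlf, Nr1d2 (31.1 ± 5.55 FPKM in Ctrl), Dbp (25.8 ± 8.54), Tef (22.1 ± 1.21) and Cry2 (21.9 ± 1.31) followed, and each overlapped its neighbour. Cry2 did not overlap Per3, the next in order. Per3 (14.6 ± 2.89), Per2 (9.76 ± 3.28), Clock (8.11 ± 0.616) and Cry1 (7.92 ± 1.15) were lowest in Ctrl, again overlapping from 1 to the next. The order in cKO was the same except that Cry2 stood above Tef and Cry1 above Clock, and there Per3 overlapped neither Tef above it nor Per2 below it.

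**Figure D1:**
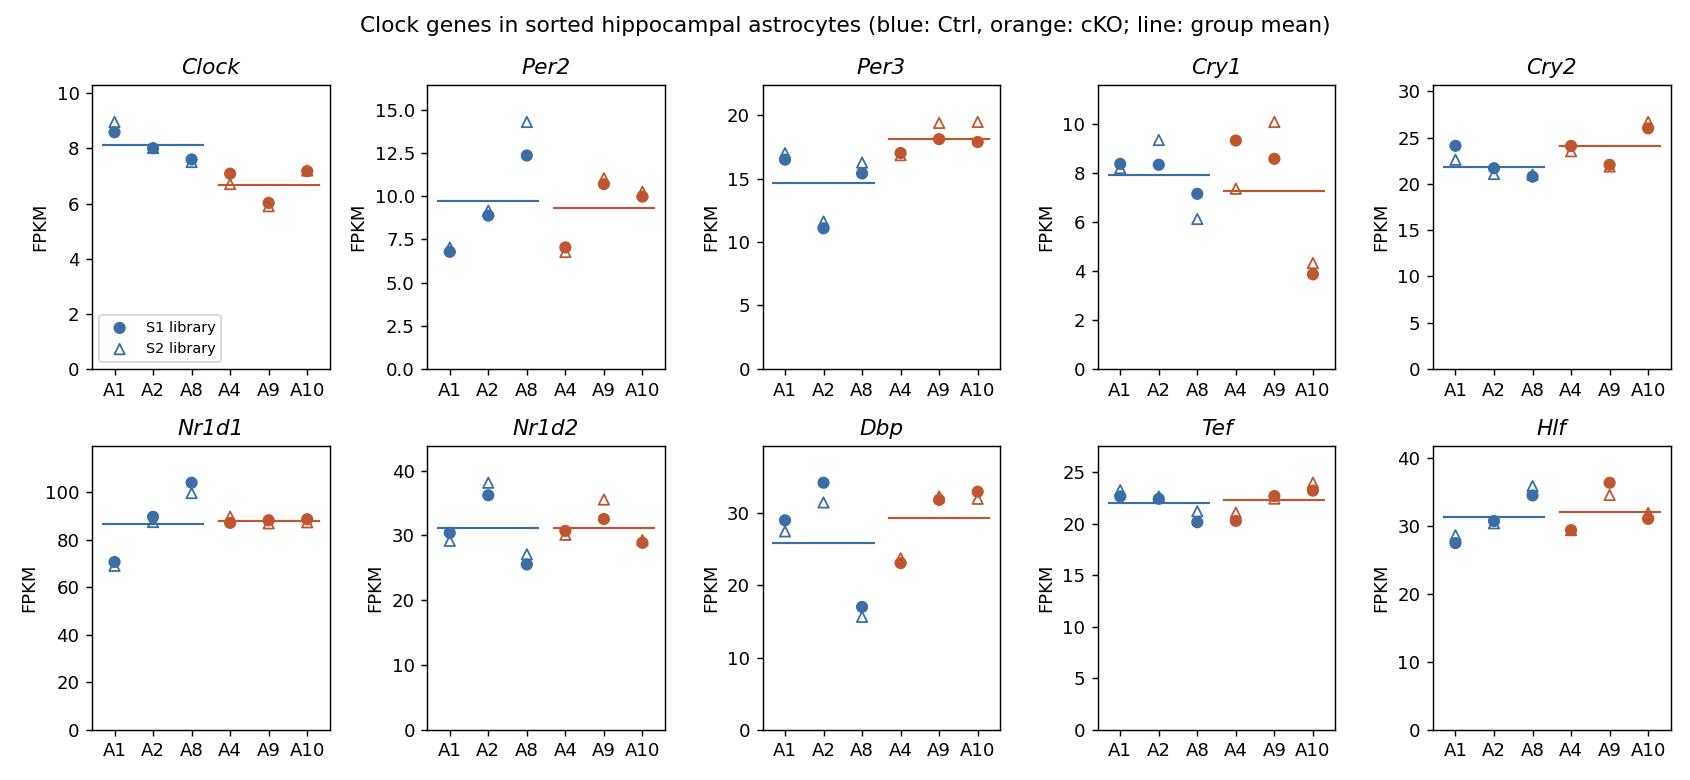
FPKM (linear axes from 0) of the 10 clock genes in each unit, with S1 libraries as filled circles, S2 libraries as open triangles and group means as lines. S1 and S2 lie close together in most genes, and Dbp in A8, Cry1 in A10 and Per3 in A2 lie apart from the rest of their group.

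None of the 10 genes passed the genotype test. The two-sided limma test ran on log2(FPKM + 1) over all 17540 genes, its p-values were adjusted by Benjamini-Hochberg, and genes under 0.05 were called. It called 0% of all genes, and 0 of the 10 had an unadjusted p under 0.05, against 7.69% of all genes (2.98% higher and 4.71% lower in cKO). The smallest adjusted p among the 10 was 0.764 (Per3). Their log2 fold changes ran from -0.25 (Clock) to 0.31 (Per3), 7 above and 3 below 0, with a median of 0.03 where the median of all genes was -0.01. With 3 units of each genotype, the widest interval (Cry1) ran from -0.85 to 0.51 and the narrowest (Tef) from -0.26 to 0.29; values inside an interval are not excluded at 95%. The exact permutation test of a single gene cannot go below 0.1 here. Without A4, 0 of the 10 passed, and the differences were -0.27 for Clock, 0.35 for Per3, 0.37 for Dbp and -0.29 for Cry1.

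**Figure D2:**
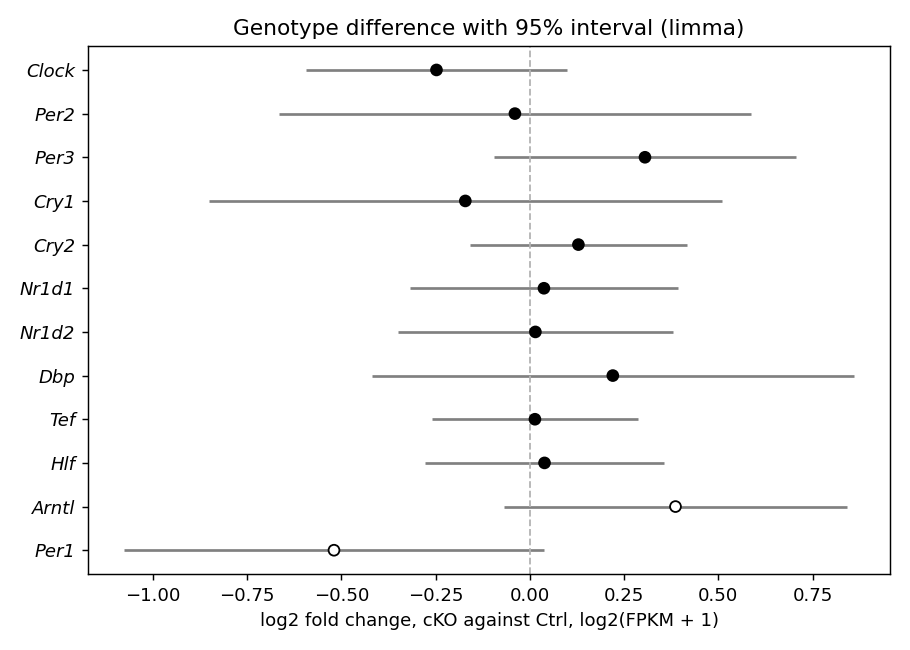
Log2 fold change of cKO against Ctrl on log2(FPKM + 1), with the 95% interval from limma, for the 10 clock genes (filled) and for Arntl and Per1 (open). All 12 intervals include 0.

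Clock, the DNA-binding partner of BMAL1, was at 8.77, 8.01 and 7.56 FPKM in A1, A2 and A8 of Ctrl and at 6.90, 5.96 and 7.19 FPKM in A4, A9 and A10 of cKO. Every cKO unit lay below every Ctrl unit, with a gap from 7.19 to 7.56 FPKM. The log2 fold change was -0.25 (standard error 0.15, 95% interval -0.59 to 0.10, adjusted p by limma = 0.784), and the exact permutation p was 0.1, the smallest possible (two-sided, n = 3 each). Units lay apart in this direction in 7.22% of all genes. The difference was -0.08 with the oligodendrocyte marker level as a covariate.

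Per3, a period gene coding for a weaker repressor than its relatives, was at 16.8, 11.4 and 15.8 FPKM in A1, A2 and A8, and at 16.9, 18.8 and 18.7 FPKM in A4, A9 and A10. The cKO units were all above the Ctrl units, but A1 and A4 nearly met, and A2 was the low unit. The log2 fold change was 0.31 (standard error 0.17, 95% interval -0.09 to 0.70, adjusted p by limma = 0.764, exact permutation p = 0.1, two-sided, n = 3 each), and it was 0.14 without A2. Units lay apart in this direction in 5.76% of all genes. Clock and Per3 were the 2 of the 10 genes whose groups did not overlap, in opposite directions, where 13% of all genes lay apart in either direction.

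Per2, a core repressor that also responds quickly to signals, was at 6.91, 9.03 and 13.3 FPKM in A1, A2 and A8 and at 6.91, 10.9 and 10.1 FPKM in A4, A9 and A10. A1 and A4 shared the lowest value to 3 digits and A8 was the highest, a 1.93-fold spread in Ctrl and a 1.57-fold spread in cKO. Its log2 fold change was -0.04 (standard error 0.26, adjusted p by limma = 0.990), and it was 0.14 without A4 and -0.24 with the oligodendrocyte marker level as a covariate.

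Cry1, the cryptochrome that prolongs repression, was at 8.28, 8.84 and 6.64 FPKM in A1, A2 and A8 and at 8.34, 9.33 and 4.09 FPKM in A4, A9 and A10. A10 was the low unit, in both of its libraries (3.86 and 4.32 FPKM), and the highest unit, A9, was of the same genotype. The spread within cKO was 2.28-fold, the widest of any of the 10 genes in either group. The log2 fold change of -0.17 (standard error 0.29, adjusted p by limma = 0.950) became 0.14 without A10 and -0.65 with the oligodendrocyte marker level as a covariate. Cry2, its close relative, ran from 20.9 to 23.4 FPKM in Ctrl and from 22.0 to 26.3 FPKM in cKO, and its highest unit was A10 (log2 fold change 0.13, standard error 0.12, adjusted p by limma = 0.889; 0.33 with that covariate).

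Nr1d1, the REV-ERB alpha repressor of Arntl, was at 69.8, 88.6 and 102 FPKM in A1, A2 and A8 and at 88.4, 87.6 and 88.0 FPKM in A4, A9 and A10. The cKO units were within a factor of 1.01 of each other, inside a Ctrl range of 1.46-fold. The log2 fold change was 0.04 (standard error 0.15, adjusted p by limma = 0.982), and without A1 it was -0.11. Nr1d2, REV-ERB beta, was at 29.8, 37.2 and 26.3 FPKM in A1, A2 and A8 and at 30.4, 34.0 and 29.1 FPKM in A4, A9 and A10 (log2 fold change 0.01, standard error 0.15, adjusted p by limma = 0.994). A8 held the highest Nr1d1 and the lowest Nr1d2 of the 6 units. By the deposited exons, Nr1d1 shares 8.55% of its bases with Thra on the other strand. Whether the counting used strand is not given in the sources used here, so reads from that stretch are uncertain, as are those from the 4.67% of Cry2 and 2.45% of Tef exonic bases that opposite-strand genes share.

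Dbp, the most strongly rhythmic output gene in many tissues, was at 28.3, 32.9 and 16.3 FPKM in A1, A2 and A8 and at 23.4, 32.1 and 32.5 FPKM in A4, A9 and A10. A8 was the low unit, in S1 (17.0 FPKM) and in S2 (15.6 FPKM), and A4 was the next lowest. The other 4 units lay between 28.3 and 32.9 FPKM across both genotypes. The log2 fold change was 0.22 (standard error 0.27, 95% interval -0.42 to 0.86, adjusted p by limma = 0.921), and it was -0.07 without A8. With the oligodendrocyte marker level as a covariate it was 1.19 (unadjusted p by limma = 0.0147, adjusted p by limma = 0.823). The Dbp exons share 18.0% of their bases with Sphk2 on the other strand. Sphk2 was at 10.1, 14.7 and 10.4 FPKM in A1, A2 and A8 and at 11.2, 12.4 and 13.4 FPKM in A4, A9 and A10. The part of Sphk2 reads in the Dbp values was not tested. A8 also had the fewest genes above 0 of the 6 units (21342 and 21572 in its libraries). In Ctrl it had the lowest immediate-early (3.18), endothelial (0.76) and ependymal (3.66) marker levels on the log2 scale. In cKO, A9 was lower still in each of these levels (2.99, 0.69 and 3.39), with Dbp at 32.1 FPKM. A9 was unlike A8 in other traits: it had 23669 and 24113 genes above 0 in its libraries. Its mural marker level was 3.78, while that of A8 was the lowest of the 6 units, 3.34. The part of these traits in the low Dbp of A8 was not tested.

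Tef and Hlf code for the other PAR bZIP factors, and A8 was not set apart in either as it was in Dbp. Tef was at 23.0, 22.5 and 20.7 FPKM in A1, A2 and A8 and at 20.7, 22.6 and 23.6 FPKM in A4, A9 and A10, a 1.14-fold range over all units with A8 and A4 lowest (log2 fold change 0.01, standard error 0.12, adjusted p by limma = 0.994). Hlf was at 28.1, 30.6 and 35.2 FPKM in A1, A2 and A8 and at 29.4, 35.5 and 31.5 FPKM in A4, A9 and A10, so A8 was its highest Ctrl unit (log2 fold change 0.04, standard error 0.13, adjusted p by limma = 0.979).

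The 10 genes differed in how much they varied between units. The SD of log2(FPKM + 1) over the 6 units was 0.08 for Tef, 0.12 for Cry2, 0.13 for Hlf and 0.17 each for Clock, Nr1d2 and Nr1d1. It was 0.25 for Per3, 0.34 for Per2 and 0.38 each for Cry1 and Dbp. The median over all genes tested was 0.33, and 7 of the 10 genes lay under it. Of the 17540 genes tested, 176 had a smaller SD than Tef, while Dbp and Cry1 each exceeded 57.2% of them. These shares were not matched for expression level. Under S1 or S2 alone, the smaller pseudocount and upper quartile scaling, each of these SDs moved by no more than a factor of 1.5.

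**Figure D3:**
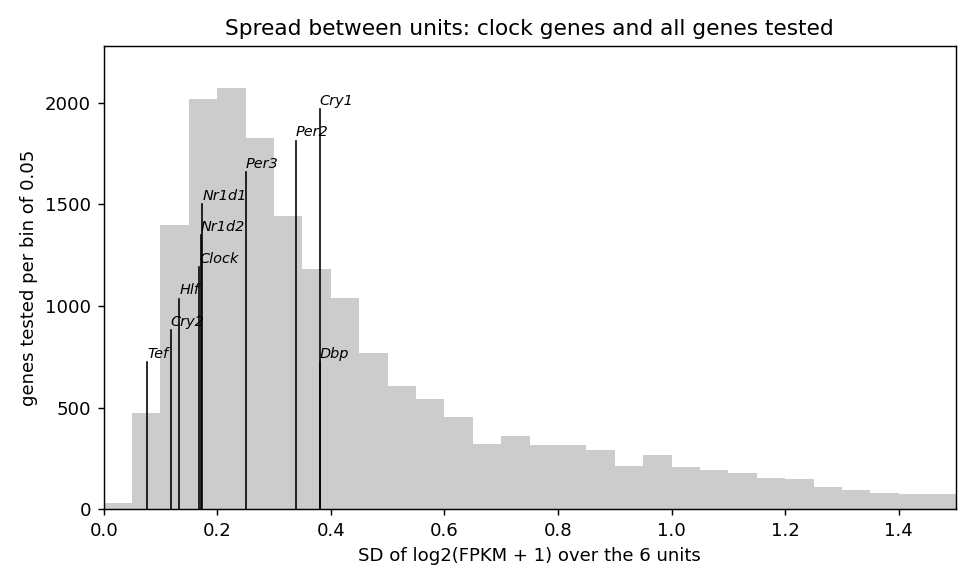
Histogram of the SD of log2(FPKM + 1) over the 6 units for all 17540 genes tested (grey, axis shown up to 1.5), with a line for each clock gene; the height of a line carries no value. The lines run from 0.08 (Tef) to 0.38 (Cry1 and Dbp), around a median of 0.33 over all genes.

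No unit was displaced in the same direction in all 10 clock genes. A shift in phase moves these genes apart, so mixed directions do not tell whether a unit was shifted in phase. A8 held the lowest value of 4 of the 10 genes (Cry2, Nr1d2, Dbp and Tef, the last level with A4) and the highest of 2 (Per2 and Nr1d1). A9 held the highest of 3 (Per3, Cry1 and Hlf) and the lowest of Clock. The largest single deviations from a gene's mean over the 6 units were -0.71 for Cry1 in A10, -0.68 for Dbp in A8, and 0.48 for Per2 in A8 and -0.48 for Per3 in A2.

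**Figure D4:**
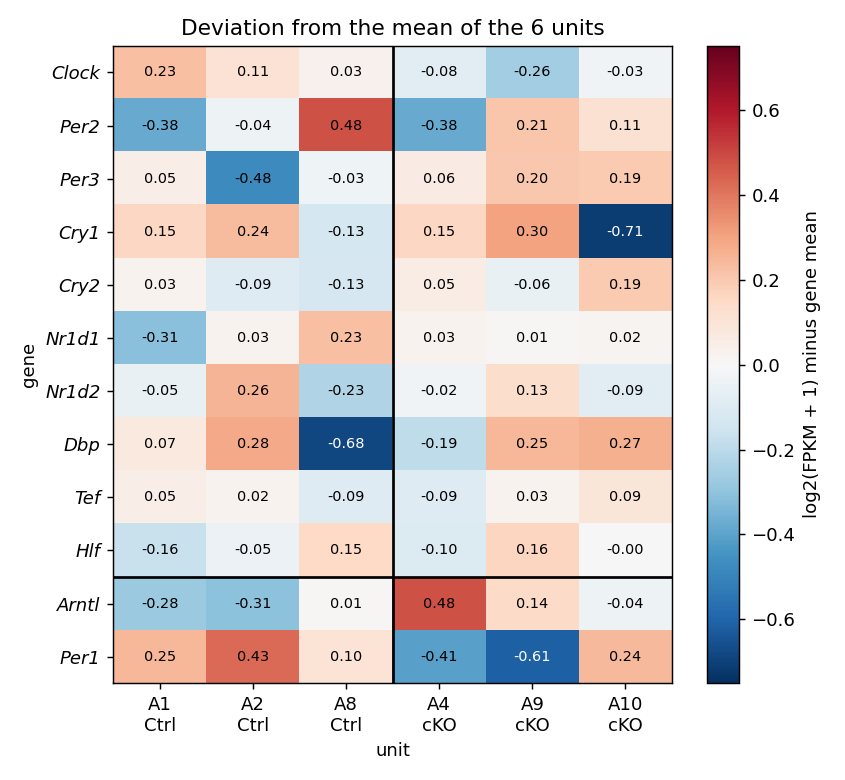
Deviation of log2(FPKM + 1) from the gene's mean over the 6 units, with genes in rows (the 10 clock genes, then Arntl and Per1 below the line) and units in columns (Ctrl left, cKO right). The deepest cells are Cry1 in A10 (-0.71) and Dbp in A8 (-0.68), and no column is of 1 colour throughout.

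Differences between pairs of clock genes were taken within each unit, with no test, since the labels give no hour. Those of Dbp or Nr1d1 with Arntl and of Per3 with Cry1 pair genes that peak at different hours, as a description of clock phase. Dbp minus Arntl, on log2(FPKM + 1), was 2.24, 2.47 and 1.19 in A1, A2 and A8 and 1.22, 1.99 and 2.19 in A4, A9 and A10. A8 of Ctrl and A4 of cKO were alike in being low, so the 2 genotypes each held 2 high units and a low unit. In A8 the low difference came with the lowest Dbp and an Arntl of 6.60 FPKM, and in A4 with the highest Arntl of the 6 units, 9.50 FPKM. Nr1d1 minus Arntl did not show A8 as low: it was 3.51, 3.88 and 3.76 in A1, A2 and A8 and 3.09, 3.41 and 3.60 in A4, A9 and A10, with A4 lowest. Dbp minus Clock, from which no phase is read because no peak hour is given above for Clock, was lowest in A8 (1.02) and highest in A9 (2.25). Per3 minus Cry1 ran from 0.33 in A2 to 1.14 in A8 within Ctrl and from 0.94 in A9 to 1.95 in A10 within cKO. In all 4 differences the groups overlapped, and the range within Ctrl exceeded the difference between the group means, by margins that varied. For Dbp minus Arntl the range was 1.28, with means of 1.97 in Ctrl and 1.80 in cKO. For Per3 minus Cry1 it was 0.814, with means of 0.803 in Ctrl and 1.279 in cKO. The margin was small for Nr1d1 minus Arntl, with a range of 0.366 and means of 3.716 in Ctrl and 3.367 in cKO.

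**Figure D5:**
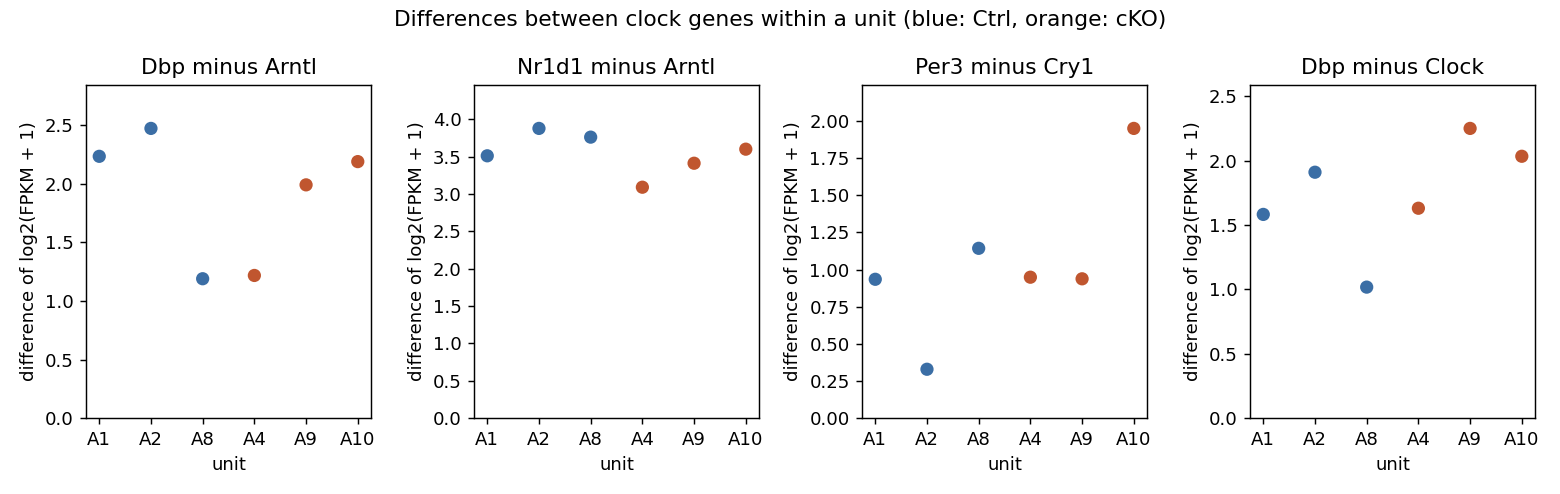
Differences of log2(FPKM + 1) between pairs of clock genes within each unit, on axes from 0, for Ctrl (blue) and cKO (orange). Dbp minus Arntl is low in A8 (1.19) and A4 (1.22), while Nr1d1 minus Arntl is low in A4 (3.09) alone.

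Across the 6 units, the other 9 genes were correlated with Dbp. Tef had the highest Pearson r, 0.84 (exact permutation p = 0.0417, adjusted over the 9 relations 0.375; Spearman rho 0.60, exact permutation p = 0.242, adjusted 1). Without A8 and A4, the units farthest from the Dbp median, r was -0.06 over the other 4. Those 4 lay between 28.3 and 32.9 FPKM in Dbp, a narrow range that can hardly show a relation. The r of 0.84 thus rests on the spread that A8 and A4 give. Nr1d2 had an r of 0.73 (exact permutation p = 0.1, adjusted 0.450; rho 0.60, exact permutation p = 0.242, adjusted 1) and 0.51 without A8 and A4. Nr1d1 had an r of -0.51 (exact permutation p = 0.283, adjusted 0.850; rho -0.20, exact permutation p = 0.714, adjusted 1), which became 0.996 without A8 and A4; of the 4 units left, A1 is low in Nr1d1 and the other 3 lie from 87.6 to 88.6 FPKM, so that value rests on A1. The other 6 lay between -0.33 (Per2) and 0.40 (Cry2), and 0 of the 9 passed after adjustment. Within a genotype there are 3 units, too few for a value.

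Among 11790 protein-coding genes outside the 10, the pattern most like that of Dbp over the 6 units belonged to Zfp111 (r = 0.990), Samd1 (r = 0.990) and Slc30a10 (r = 0.989), and the most opposite to Hsd17b10 (r = -0.988), Irak4 (r = -0.985) and Irak1 (r = -0.983). An r over 0.95 was reached by 38 genes and an r under -0.95 by 23. Samd1 was at 1.07 FPKM in A8 and at 2.82 to 5.08 FPKM in the other units, while Hsd17b10 was at 24.1 FPKM there and at 8.63 to 12.7 FPKM elsewhere. In both genes A8 is the unit farthest from the rest, and genes picked in this way are given no p.

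S1 and S2 libraries differed little in these genes. In the limma comparison of S2 with S1, blocked by A number, 0 of the 10 genes had an adjusted p under 0.05, against 1.39% of all genes, and 1 an unadjusted one, against 11% of all. Per3 came nearest, with an S2 minus S1 difference of 0.06 (standard error 0.02, adjusted p by limma = 0.340), higher in S2 in 5 of 6 A numbers. The largest ratio between the libraries of a unit was 1.27-fold, for Cry1 in A4 (9.32 FPKM in S1 and 7.36 FPKM in S2). The genotype by S interaction was past the threshold in 0 of the 10 genes and 0% of all genes by limma. At an unadjusted p under 0.05 it was past in 0 of the 10 and 5.02% of all. No A number stood outside Dixon's limit for 6 values in the S2 minus S1 differences of the 10 genes.

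Other genes of the core loop did not pass either. The list holds 15 names, with Bmal1 also written as Arntl and Bmal2 also as Arntl2. Of these names, 13 were in the table and 11 were tested. By limma, 0 had an adjusted p under 0.05, and 1 (Cipc) was lower at an unadjusted p under 0.05, where 4.71% of all genes were. The median log2 fold change was -0.05, against -0.01 over all genes. Arntl, the partner of Clock, had a Ctrl mean of 5.64 ± 0.837 FPKM and a cKO mean of 7.72 ± 1.62 FPKM (SD, n = 3), with a log2 fold change of 0.39 (standard error 0.19, adjusted p by limma = 0.721), and A10 (6.34 FPKM) lay below A8. Per1, a period gene that signals can induce within minutes, had a Ctrl mean of 21.2 ± 2.50 FPKM and a cKO mean of 15.0 ± 5.20 FPKM (SD, n = 3). It was low in A4 (12.9 FPKM) and A9 (11.1 FPKM), whereas A10 (20.9 FPKM) lay within the Ctrl range, and the log2 fold change was -0.52 (standard error 0.23, adjusted p by limma = 0.681). Cipc, which codes for a CLOCK-interacting repressor, averaged 23.9 ± 2.01 and 18.5 ± 1.84 FPKM (log2 fold change -0.35, standard error 0.13, adjusted p by limma = 0.606). Bhlhe40, an E-box repressor, averaged 41.3 ± 4.84 and 33.6 ± 2.21 FPKM (log2 fold change -0.29, standard error 0.13, adjusted p by limma = 0.671). Cipc, Bhlhe40 and Ciart were the 3 of 11 whose cKO units all lay below the Ctrl units, where 7.22% of all genes did. With the oligodendrocyte marker level as a covariate the log2 fold changes were -0.04 for Cipc, -0.07 for Bhlhe40 and -0.13 for Ciart.

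All 21 tested immediate-early genes, which stimulation switches on quickly, had fold changes below 0, where 50.8% of all genes did. Of these, 3 were at an unadjusted p under 0.05 (4.71% of all genes were lower at that p) and 0 at an adjusted one, and the median log2 fold change was -0.82, against -0.01 over all genes. The list's mean level on the log2 scale in the Ctrl units was 4.92 (A1), 4.92 (A2) and 3.18 (A8), and 3.81, 2.99 and 3.81 in A4, A9 and A10. The part of this list's level in the clock gene values was not tested. With this level as a covariate, 0 of the 10 clock genes passed, and the difference in Per2 was -0.36 (adjusted p by limma = 0.559).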

How the data were processed

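RNA was sequenced in 12 libraries. The deposited FPKM values were made by the authors; the submitters' processing notes name STAR, featureCounts, FastQC and DESeq2 and the builds mm10 and GRCm38, without roles or versions. Of 51948 identifiers matched to GENCODE M21 (GRCm38), 2.77% had the same coordinates in the deposited table while 95.8% spanned the same length. Most of the table's coordinates are thus not those of GRCm38. No other build was compared, so which build it uses is not settled. The FPKM multiplied by the deposited length in kilobases summed to 1000000 per library. Depth was recovered from the steps between low values; 85.7% to 89.5% of genes with few reads were within 0.02 of a whole read.

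Rows sharing a symbol (147 symbols) were summed. Values were log2(FPKM + 1), averaged over S1 and S2, which understates changes of low genes. The genotype test used limma 3.58.1 (R 4.3.3, variance trend) on genes with a mean of at least 1 FPKM, and the fit was tested on simulated data. Exact permutation tests covered 20 arrangements. Correlations, motifs and figures used Python 3.11.15. Columns of other samples numbered 0.

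The members and lists were chosen with earlier results of these data known. The rule for named genes takes the 10 clock genes, Arntl and Per1, the 2 genes of smallest unadjusted p in each of the other 5 lists, and the 3 highest and 3 lowest correlations with Dbp; Sphk2, Thra and the marker examples were named after their values were seen. Alternatives were another pseudocount, no filter, 2 other scalings, either S number alone, fits to all 12 libraries, voom on recovered reads, robust eBayes, 2 covariates and each A number left out.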

Additional observations from a re-analysis of the deposited data

How the results depend on the processing

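The count of 0 clock genes past the threshold between genotypes held in all 18 alternatives, and that of 0 between S2 and S1 in all 8. With the 12 libraries and the A number as a random effect, 0 of the 10 clock genes and 112 genes in all passed; with the replicate block added, which pairs S numbers and no animals, 0 of the 10 and 80 in all. Without A1, 1 gene in all passed. Of 180 alternative fold changes of the 10 genes, 18 had the other sign, none past the threshold; the cause was not tested. Leaving out each A number gave ranges of -0.24 to 0.19 for Per2, -0.37 to 0.14 for Cry1, -0.11 to 0.16 for Nr1d1, -0.095 to 0.15 for Nr1d2, -0.067 to 0.42 for Dbp, -0.031 to 0.064 for Tef and -0.034 to 0.12 for Hlf. Per2 was 0.031 under upper quartile scaling and 0.0025 in S1 alone. Nr1d1 was -0.23 and Hlf -0.12 with the oligodendrocyte covariate, and -0.10 each with the immediate-early covariate. With the oligodendrocyte covariate Nr1d2 was 0.20, Tef 0.24, Egr2 -0.074, Arntl -0.21, Per1 0.24, Usp2 0.059, Nr4a2 0.067, Sgk1 0.28 and Errfi1 0.18. The correlation of Per3 with Dbp was 0.051 under upper quartile scaling; without A8 and A4 that of Per2 was 0.86, Cry1 -0.23, Cry2 -0.059, Nr1d1 0.996, Tef -0.058 and Hlf 0.66. Upper quartile scaling moved the median fold change of all genes from -0.01 to 0.06. Where an arm keeps 2 units, limma borrows the spread of all genes. Recovered reads cover counting error only.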

Other observations

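Clock protein kinases and ubiquitin ligases, listed together with the deubiquitinase Usp2, were tested in 14 of 14 genes. By limma, 0 had an adjusted p under 0.05, as 0% of all genes did, and 0 an unadjusted one, against 7.69% of all genes, with a median log2 fold change of -0.09, against -0.01 over all genes. Csnk2b, a casein kinase subunit, had a Ctrl mean of 21.6 ± 5.60 FPKM and a cKO mean of 16.1 ± 3.26 FPKM (SD, n = 3 each), and Usp2, a deubiquitinase, 19.8 ± 2.14 and 16.5 ± 2.66 FPKM. The log2 fold change of Csnk2b was -0.39, and it was -0.20 without A8, its highest unit at 28.0 FPKM, and -1.10 with the oligodendrocyte marker level as a covariate. That of Usp2 was -0.26, and -0.13 without A9.

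Of 14 listed genes that are rhythmic in many mouse tissues, some of them also in the other lists, 13 had fold changes below 0 in cKO against Ctrl, where 50.8% of all genes did. The median log2 fold change was -0.28, against -0.01 over all genes, and 0 were at an unadjusted limma p under 0.05, against 7.69% of all genes. Ciart, already counted in the core list, an E-box target that represses the loop, had a Ctrl mean of 3.67 ± 0.357 FPKM and a cKO mean of 2.61 ± 0.249 FPKM (SD, n = 3 each; log2 fold change -0.37, adjusted p by limma = 0.720), and its units did not overlap. Wee1, a cell cycle kinase, averaged 3.36 ± 0.572 and 2.17 ± 0.561 FPKM. Of 13 tested glucocorticoid-induced genes, 10 had fold changes below 0, where 50.8% of all genes did. Their median log2 fold change was -0.46, against -0.01 over all genes. Of the 13, 2 were lower at an unadjusted limma p under 0.05, where 4.71% of all genes were, and 0 at an adjusted one. The 2 were Sgk1 (19.7 ± 18.1 and 4.79 ± 2.65 FPKM), whose Ctrl mean rests on A2 at 40.6 FPKM, and Errfi1 (7.63 ± 2.30 and 4.60 ± 0.824 FPKM). The immediate-early genes of smallest p were Nr4a2 (3.88 to 8.24 FPKM in Ctrl, 1.61 to 3.71 FPKM in cKO) and Egr2 (5.19 ± 3.85 and 0.885 ± 0.259 FPKM), the 2 of 21 whose cKO units all lay below the Ctrl units, where 7.22% of all genes did. The rhythmic list shares Ciart, Bhlhe41 and Nfil3 with the core list, Usp2 with the kinase list and Tsc22d3, Pdk4 and Cdkn1a with the glucocorticoid list, which shares Per1 with the core list, so those counts are not independent.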
